A study of Mus musculus with 16 samples.

Results

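The genes described here are 9 antioxidant genes, Gpx2, Nfe2l2, Nqo1, Gclc, Gclm, Srxn1, Txnrd1, Hmox1 and Slc7a11, in mouse liver before and after regeneration, with and without the histone chaperone HIRA in hepatocytes. They were taken by gene name from a count table of 55421 gene IDs, in which each name stood once, and all 9 were among the 23018 genes with at least 10 counts in total that were tested. Gpx2 was picked for its rise from before to after regeneration in control. Its values in that comparison, and in the interaction that contains it, are thus a description with no test. The same control libraries stand in its comparisons of HIRA KO with control, so its p-values there are a description too. The other members and the wider lists were chosen with earlier results of these data known. Their counts and medians beside those of all genes are therefore also a description. PolyA RNA from whole liver of male C57BL/6 mice was sequenced in 16 libraries, 4 for each genotype (control or HIRA KO) at each time (before or after regeneration). HIRA KO mice were either HIRAfl/fl mice given AAV8-Tbg-Cre or wildtype mice given AAV8-Tbg-saCas9 with sgRNA-HIRA. Control mice were wildtype and received either AAV8-Tbg-Cre or saCas9 with sgRNA-Rosa26, so every mouse in the study carried a virus with an active nuclease or recombinase. Each group held 2 libraries of each of the 2 approaches. Tbg is a hepatocyte promoter, which leaves Hira intact in the other cells of the liver. The virus was injected at an age of 6 months, and a partial hepatectomy followed after 4 weeks. The resected tissue gave the libraries before regeneration, and the liver that remained, taken 5 days later from the same mice, gave those after it. The lobe, the way of collection and the time changed together and cannot be told apart.

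NFE2L2, the protein known as NRF2, is a transcription factor that KEAP1 binds and marks for degradation in unstressed cells. When oxidants or electrophiles modify KEAP1, NRF2 accumulates, pairs with small MAF proteins and binds antioxidant response elements near its target genes. Its classical targets supply glutathione (Gclc, Gclm, Slc7a11), the thioredoxin system (Txnrd1, Srxn1), quinone reduction (Nqo1) and heme breakdown (Hmox1), and Gpx2 encodes a glutathione peroxidase best known from the epithelium of the gut. Hepatocytes, which handle many electrophiles, are a well-studied site of this response.

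Total counts per library ran from 15103059 to 21738619. Hira itself had 5.77 ± 0.448 CPM (counts scaled to a common library size with TMM factors, mean ± SD, n = 4) in control and 3.54 ± 0.571 CPM in HIRA KO before regeneration, and 5.67 ± 0.554 and 3.51 ± 0.707 CPM after it. Hepatocyte markers were present in every library, and the 9 of them measured summed to between 114272 and 174219 CPM. On the second principal component, 4 HIRA KO libraries stood apart from all the rest, numbers 1 and 2 before regeneration and numbers 1 and 2 after it. They lay between -47.4 and -36.2, and the other libraries between -1.14 and 31.2. The numbers 1 to 4 only name libraries within a group and give neither the mouse nor the deletion approach. Calls of the 9 genes and of the wider lists that changed without these 4 libraries are given both ways.

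The promoters of the members are shown because they hold, or lack in this window, the letters that NRF2 is known to bind. Promoter sequence from RefSeq (GRCm38.p6) was matched for 7 of the 9 genes, Gclc and Hmox1 being the others. The 250 bases before each start were searched on both strands for TGACNNNGC, the core of the antioxidant response element, and for TGAGTCAGC, a form of it that also holds the binding site of AP-1. Neither spelling contains the other, although matches may overlap. TGACNNNGC is found in 10.2% of 32851 promoter windows of this length, TGAGTCAGC in 0.347%, and either in 10.5%. Srxn1 held TGAGTCAGC from 45 to 37 bases before its start. Gclm held TGACGGTGC on the opposite strand from 134 to 126 bases before its start, and one of the 3 Txnrd1 starts held TGACAAAGC on the opposite strand from 92 to 84 bases before it. Nfe2l2 held TGACTCCGC from 240 to 232 bases before its start. No match stood in these windows of Nqo1, Gpx2 or Slc7a11. Windows are printed 5′ to 3′ on the strand of the gene, and capitals mark the match, read on the opposite strand in Gclm and Txnrd1.
Srxn1, chr2:152105274-152105523, plus strand: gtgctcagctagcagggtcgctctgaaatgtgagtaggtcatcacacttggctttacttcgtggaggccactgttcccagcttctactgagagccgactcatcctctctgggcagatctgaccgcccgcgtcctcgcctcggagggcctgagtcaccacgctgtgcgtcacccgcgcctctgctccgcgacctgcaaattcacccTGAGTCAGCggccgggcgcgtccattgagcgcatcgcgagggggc
Gclm, chr3:122245307-122245556, plus strand: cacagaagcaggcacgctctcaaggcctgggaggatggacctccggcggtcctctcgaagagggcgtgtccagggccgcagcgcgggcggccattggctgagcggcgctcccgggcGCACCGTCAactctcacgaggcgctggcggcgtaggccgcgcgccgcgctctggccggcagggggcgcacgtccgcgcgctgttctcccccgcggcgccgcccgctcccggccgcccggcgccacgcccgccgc
Txnrd1, chr10:82858956-82859205, plus strand: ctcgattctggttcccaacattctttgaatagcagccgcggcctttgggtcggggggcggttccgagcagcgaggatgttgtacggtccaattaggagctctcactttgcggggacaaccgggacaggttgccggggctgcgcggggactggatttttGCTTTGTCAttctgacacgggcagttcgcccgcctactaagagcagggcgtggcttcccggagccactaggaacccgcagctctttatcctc
Nqo1, chr8:107403206-107403455, minus strand: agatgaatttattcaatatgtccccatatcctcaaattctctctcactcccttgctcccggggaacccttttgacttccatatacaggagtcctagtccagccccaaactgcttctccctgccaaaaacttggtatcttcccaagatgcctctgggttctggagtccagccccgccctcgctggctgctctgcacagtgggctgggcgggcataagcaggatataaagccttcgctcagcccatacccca
Gpx2, chr12:76795555-76795804, minus strand: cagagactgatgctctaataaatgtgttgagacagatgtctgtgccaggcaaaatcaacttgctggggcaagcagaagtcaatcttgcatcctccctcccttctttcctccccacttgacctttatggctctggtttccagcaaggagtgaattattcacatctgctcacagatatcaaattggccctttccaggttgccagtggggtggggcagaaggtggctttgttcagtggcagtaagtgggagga

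Gpx2 (ENSMUSG00000042808.8, chr12:76792333-76795554, minus strand, GRCm38) was close to absent in control liver before regeneration and present in every library after it. In control before regeneration each of the 4 libraries held 1 count, or 0.0497, 0.0538, 0.0572 and 0.0592 CPM. In control after regeneration the 4 libraries held 22, 46, 167 and 298 counts, or 1.38, 2.64, 9.10 and 14.3 CPM. The groups did not overlap, and the libraries after regeneration spanned 10.4-fold among themselves. Summed over libraries, the 533 counts after and 4 counts before gave a ratio of 134 at equal depth, with a 95% interval from 52.1 to 494 that covers counting error only.

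Gpx2 varied widely among HIRA KO libraries before regeneration. Libraries 1 and 2, which stood apart, held 58 and 15 counts, or 3.07 and 1.00 CPM, whereas libraries 3 and 4 held 1 and 2 counts, or 0.0680 and 0.125 CPM. The level of the first of these libraries was thus within the range of control liver after regeneration, and that of the last pair was near that of control liver before it. The fitted log2 fold change of HIRA KO against control before regeneration was 4.17 ± 1.67 (SE), with an adjusted p of 0.320 from the quasi-likelihood test of edgeR, adjusted over all genes by the method of Benjamini and Hochberg. DESeq2 gave 4.30 with an adjusted p of 0.0438. The control libraries here are those whose low level entered the choice of Gpx2, so these values are a description. All HIRA KO libraries lay above all control libraries, as 3.54% of all genes did, although for libraries 3 and 4 this rested on 1 and 2 counts. Without libraries 1 and 2 the edgeR value was 0.76 ± 2.46 (adjusted p = 0.983), and the ratio of summed counts fell from 21.5 (8.06 to 80.9) to 1.79 (0.262 to 10.6). The 7 cholangiocyte markers summed to 143 and 97.4 CPM in libraries 1 and 2 and to 57.7 and 73.7 CPM in libraries 3 and 4, against 47.8 to 72.4 CPM in control. The 8 stellate cell and matrix markers summed to 419 and 235 CPM in libraries 1 and 2, 74.1 and 78.9 CPM in libraries 3 and 4, and 70.2 to 97.1 CPM in control. After regeneration HIRA KO libraries 1 and 2, then the lowest in Gpx2, had cholangiocyte sums of 131 and 106 CPM and stellate sums of 284 and 206 CPM. Control libraries 3 and 4, then the highest of control in Gpx2, had cholangiocyte sums of 90.9 and 87.0 CPM and stellate sums of 87.0 and 288 CPM. The part of these cells in the Gpx2 value was not tested. Of 6 markers of intestinal epithelium, Cdx2 had no count in any of the 16 libraries, Muc2 had 9 counts and Cdh17 had 17 counts over all of them. Of the Cdh17 counts, 8 and 6 were in HIRA KO libraries 1 and 2 after regeneration, and every other library held 0 or 1. Vil1, which encodes villin of the microvilli, had 10.1 and 8.80 CPM in libraries 1 and 2, 0.748 and 1.06 CPM in libraries 3 and 4, and 0.118 to 0.484 CPM in control. Its log2 fold change of HIRA KO against control before regeneration was 3.86 ± 1.03 (edgeR adjusted p = 0.178). Lgals4, a galectin, had 30.4 and 7.60 CPM in libraries 1 and 2 and 11.5 and 10.7 CPM in libraries 3 and 4, against 8.19 to 11.9 CPM in control. Fabp2, a fatty acid binding protein, had 42.7 CPM in both of libraries 1 and 2, 76.5 and 67.1 CPM in libraries 3 and 4, and 52.1 to 101 CPM in control. Vil1 was thus high and Fabp2 low in the libraries with the most Gpx2 of this group. After regeneration HIRA KO libraries 1 and 2, then the lowest in Gpx2, had 5.21 and 6.35 CPM of Vil1 and 16.5 and 26.4 CPM of Fabp2. Control libraries 3 and 4 after regeneration, with 9.10 and 14.3 CPM of Gpx2, had 0.327 and 0.144 CPM of Vil1 and 51.9 and 117 CPM of Fabp2. The part of epithelial cells in the Gpx2 value was not tested.

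After regeneration the HIRA KO libraries held 16, 21, 198 and 96 counts of Gpx2, or 0.725, 0.933, 9.39 and 5.34 CPM. The libraries that stood apart were the lowest of the 8 taken after regeneration, and the other pair lay within the control range. From before to after regeneration in HIRA KO the log2 fold change was 1.88 ± 1.04 with an edgeR adjusted p of 0.269, and the groups overlapped. Without the libraries that stood apart it was 6.16 ± 1.42 and was called (adjusted p = 0.0275), with 294 counts in 2 libraries after regeneration against 3 counts in 2 libraries before it. After regeneration HIRA KO and control overlapped, at a log2 fold change of -0.75 ± 0.943 (edgeR adjusted p = 0.754), which was 0.11 ± 0.724 without the libraries that stood apart. The control libraries of this comparison are those whose high level entered the choice of Gpx2, so these values are a description. Gpx2 overlaps Fntb on the opposite strand, and whether counting used the strand is not given in the sources used here. The processed pseudogene Gpx2-ps1, with which reads could be shared, had between 0 and 3 counts per library.

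**Figure D1:**
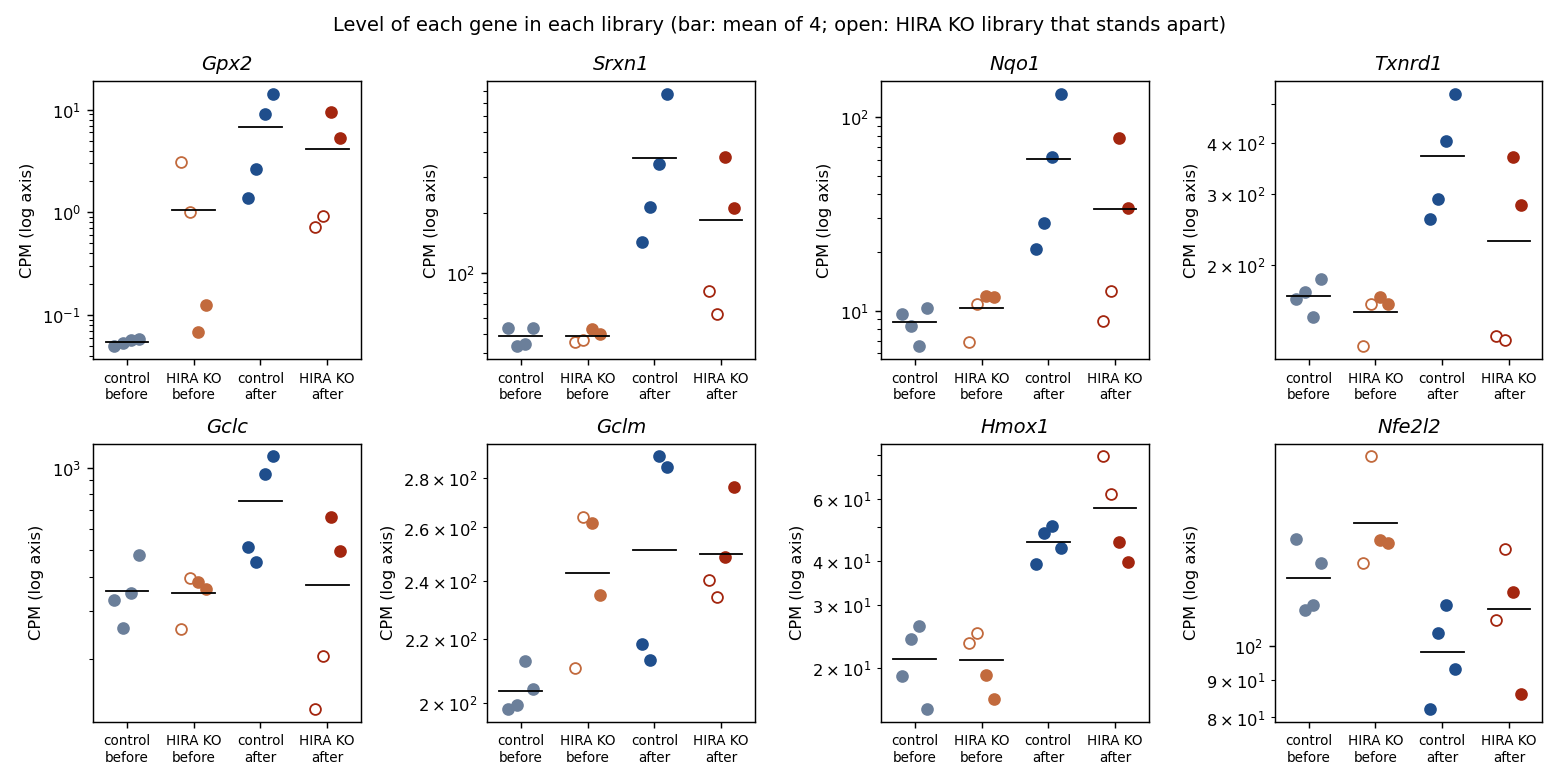
CPM on a log axis for 8 of the genes (Slc7a11, with 0 counts in some libraries, is left out), with 1 point per library, 4 libraries per group, and a bar at the group mean. Open points are the HIRA KO libraries that stood apart, which held 3.07 and 1.00 CPM of Gpx2 before regeneration and the lowest Srxn1, Nqo1, Txnrd1 and Gclc of the 8 libraries after it.

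Of the other 8 genes, 4 rose in control from before to after regeneration and none fell, at an adjusted p under 0.05 in edgeR's test. Over all genes tested 10.2% were called in this comparison, and 6.04% were called as higher. The 4 were Srxn1, Nqo1, Txnrd1 and Hmox1. Of these 8 genes, 5 had all control libraries after regeneration above all those before it, against 10.0% of all genes. The median log2 fold change was 1.13 over the 8 genes and 0.00 over all genes. As the 8 were chosen with earlier results of these data known, the shares and medians are a description and no test of the set.

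Srxn1 (ENSMUSG00000032802.8, chr2:152105516-152111376, plus strand), which encodes sulfiredoxin, the enzyme that repairs overoxidised peroxiredoxins, had 53.2, 43.2, 44.5 and 53.3 CPM in control before regeneration and 142, 214, 349 and 779 CPM after it. Every library after regeneration exceeded every library before it, by a widely varying amount. The log2 fold change was 2.93 ± 0.591 (edgeR adjusted p = 0.00734), a 7.64-fold difference. In HIRA KO it had 45.6, 46.5, 52.8 and 50.1 CPM before and 81.4, 62.6, 375 and 211 CPM after regeneration. It rose here as well, by 1.91 ± 0.569 on the log2 scale (edgeR adjusted p = 0.0461), with no overlap. This call was near the threshold, was made in 2 of 8 fits that left out 1 library, and was lost without the libraries that stood apart, where fewer libraries gave a larger value of 2.53 ± 0.725 (adjusted p = 0.0625). The single libraries without which it was lost were any 1 of HIRA KO before regeneration (1.89 to 1.97) and library 3 (1.28) or 4 (1.85) after it. Srxn1 is the gene whose window above held TGAGTCAGC, and whether this match bears on its rise was not tested.

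Nqo1 (ENSMUSG00000003849.8, chr8:107388225-107403206, minus strand), which encodes a quinone reductase often used as a readout of NRF2 activity, had 9.65, 8.28, 6.53 and 10.3 CPM in control before and 20.9, 28.4, 62.6 and 133 CPM after regeneration. The order of the 4 control libraries after regeneration was the same as for Srxn1 and Gpx2. The log2 fold change was 2.82 ± 0.712 (edgeR adjusted p = 0.0245), a 7.04-fold difference. It was called in 3 of 8 fits that left out 1 library, with adjusted p from 0.0157 to 0.0832. The call was lost without any 1 of the 4 control libraries before regeneration (log2 fold change 2.71 to 2.90), without control library 4 after it (2.07) and with limma-voom (2.46, adjusted p = 0.0552). Levels in HIRA KO were 6.88, 10.9, 11.9 and 11.7 CPM before and 8.88, 12.7, 78.4 and 34.1 CPM after regeneration. The libraries that stood apart were in or near the range before regeneration and the other pair was above it. The log2 fold change in HIRA KO was 1.70 ± 0.690 with an adjusted p of 0.133, and 2.27 ± 0.860 with an adjusted p of 0.140 without the libraries that stood apart.

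Txnrd1 (ENSMUSG00000020250.10, chr10:82833951-82897712, plus strand), the cytosolic thioredoxin reductase, had 165, 172, 149 and 185 CPM in control before and 261, 291, 405 and 531 CPM after regeneration. It rose by 1.15 ± 0.300 on the log2 scale (edgeR adjusted p = 0.0228), a 2.22-fold difference, which was called in 2 of 8 fits without 1 library. It was lost without any 1 of the control libraries before regeneration (1.10 to 1.19) and without control library 3 (1.12) or 4 (0.90) after it. With no filter on low counts the adjusted p was 0.0574. The HIRA KO libraries had 126, 159.7, 166 and 160.1 CPM before and 133, 130.1, 371 and 282 CPM after regeneration. The libraries that stood apart again did not exceed the range before regeneration. The log2 fold change in HIRA KO was 0.58 ± 0.298 with an adjusted p of 0.223, and without those libraries it was 1.02 ± 0.274 and was called (adjusted p = 0.0334). Eid3 overlaps Txnrd1 on the same strand and had 71 counts over all libraries.

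Hmox1 (ENSMUSG00000005413.8, chr8:75093621-75100589, plus strand), which encodes the inducible heme oxygenase, was the member called in both genotypes in every setting tried. In control it had 18.9, 24.0, 26.3 and 15.3 CPM before and 39.1, 48.1, 50.4 and 43.6 CPM after regeneration. The groups did not overlap, and the spread after regeneration was only 1.29-fold. It rose by 1.10 ± 0.211 on the log2 scale (edgeR adjusted p = 0.00369). In HIRA KO it had 23.5, 25.0, 19.0 and 16.3 CPM before and 79.1, 62.0, 45.2 and 39.7 CPM after regeneration. It rose by 1.43 ± 0.212 (edgeR adjusted p = 0.000698), and by 1.28 ± 0.214 without the libraries that stood apart (adjusted p = 0.00268). The libraries that stood apart were the highest after regeneration for Hmox1, in contrast to Srxn1, Nqo1, Txnrd1 and Gclc, for which they were the lowest. Kupffer cells, the macrophages of the liver, express Hmox1 strongly. All 10 of their markers were also called as higher in both genotypes, where 6.04% of all genes were in control and 6.48% in HIRA KO. Without the libraries that stood apart, in a fit to which these shares do not belong, 9 were called in HIRA KO. Their summed level ran from 179.99 to 487 CPM in control before and 819.9 to 1034 CPM in control after regeneration, and from 252 to 288 CPM and 809.7 to 1220.5 CPM in HIRA KO. In HIRA KO libraries 1 to 4 after regeneration the sums were 899.9, 809.7, 1067 and 1220 CPM. The libraries that stood apart, with the highest Hmox1 of that group, thus had its lowest sums. In control after regeneration library 3 was the highest for both. In bulk liver, more cells of a type and more RNA per cell cannot be told apart, and the part of Kupffer cells in the Hmox1 value was not tested.

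The genes for glutathione synthesis were not called across time by edgeR over all 16 libraries, although other settings called Gclc or Gclm in control. Gclc (ENSMUSG00000032350.9, chr9:77754535-77794485, plus strand), the catalytic subunit of glutamate cysteine ligase, had 330.2, 260.2, 350.5 and 481 CPM in control before and 514, 455, 950.3 and 1100.5 CPM after regeneration. The groups overlapped in 1 library, and the log2 fold change was 1.09 ± 0.436 (edgeR adjusted p = 0.142). DESeq2 called it (adjusted p = 0.0392), as did edgeR on only the groups compared (adjusted p = 0.0462), both at 1.09. The HIRA KO libraries had 258, 397, 381 and 361 CPM before and 132, 206, 659.6 and 495 CPM after regeneration. The libraries that stood apart lay below every other library of the study, and the other pair above every HIRA KO library before regeneration. The fitted log2 fold change over all 4 was 0.09 ± 0.431 (adjusted p = 0.919), and without the libraries that stood apart it was 0.65 ± 0.417 (adjusted p = 0.368).

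Gclm (ENSMUSG00000028124.15, chr3:122245557-122270732, plus strand), the modifier subunit of the same ligase, varied least of the targets. It had 198, 199, 213 and 204 CPM in control before and 218, 213, 289 and 285 CPM after regeneration. These groups were separated by a narrow margin, and the log2 fold change was 0.30 ± 0.124 with an edgeR adjusted p of 0.139. On the deposited FPKM limma called it, at 0.53 on log2(FPKM + 1) (adjusted p = 0.0331) and 0.54 on log2(FPKM + 0.1) (adjusted p = 0.0296). Levels in HIRA KO were 211, 264, 262 and 235 CPM before and 240.2, 234, 249 and 276 CPM after regeneration, with a log2 fold change of 0.04 ± 0.124 (adjusted p = 0.876). The opposite-strand transcript Gm17494 overlaps Gclm and had 263 counts over all libraries.

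Slc7a11 (ENSMUSG00000027737.10, chr3:49892526-50443614, minus strand), the cystine importer, was at the limit of detection. It had 0, 0, 1 and 3 counts in control before and 1, 4, 3 and 9 counts after regeneration. In HIRA KO it had 10, 1, 0 and 0 counts before and 5, 11, 7 and 1 counts after regeneration. No fold is given for so few counts, and none of the 5 comparisons was called (edgeR adjusted p from 0.321 to 0.909). A change in Slc7a11 was not detectable at this depth.

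**Figure D2:**
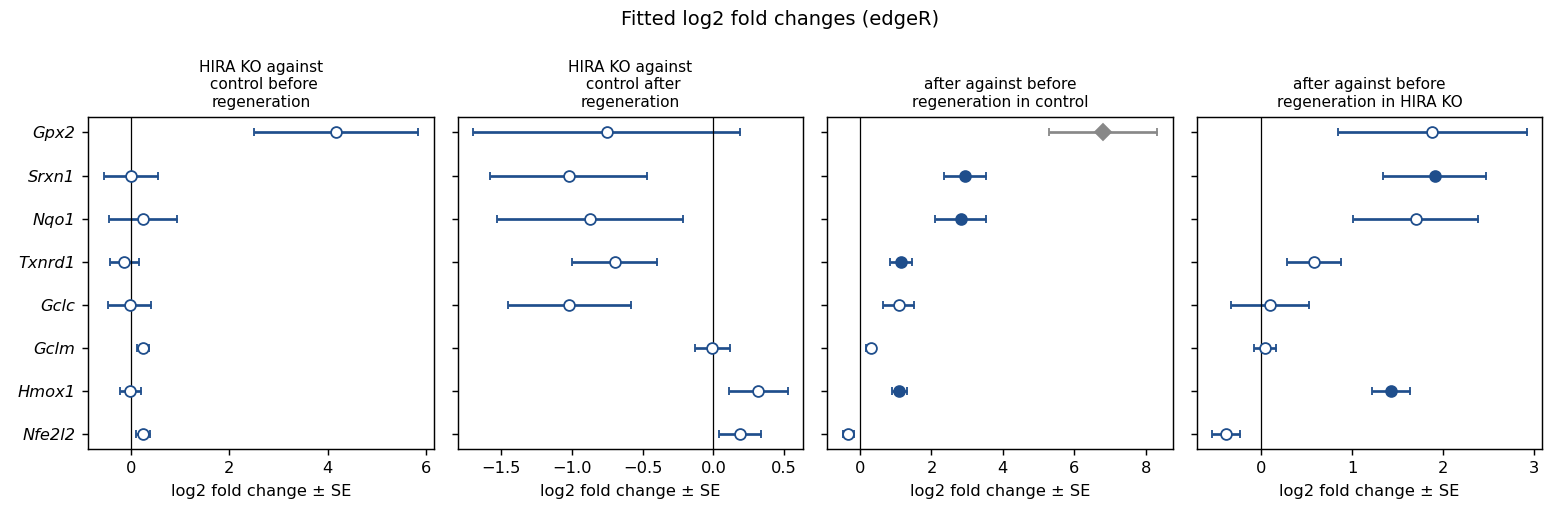
Fitted log2 fold changes with their standard errors from edgeR for 8 genes in 4 comparisons, with a separate horizontal scale in each panel. Filled circles were called at an adjusted p under 0.05, open circles were not, and the grey diamond is Gpx2 in control, shown as a description. Srxn1 and Hmox1 were called in both genotypes, Nqo1 and Txnrd1 in control.

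Nfe2l2 (ENSMUSG00000015839.6, chr2:75675513-75704641, minus strand), the gene of the factor itself, was not higher after regeneration. It had 139.5, 112, 114 and 129 CPM in control before and 82.1, 104, 114 and 93.0 CPM after regeneration, with overlap and a log2 fold change of -0.33 ± 0.149 (edgeR adjusted p = 0.183). Levels in HIRA KO were 129.5, 181, 139 and 138 CPM before and 108, 135, 118 and 86.0 CPM after regeneration, and the log2 fold change was -0.39 ± 0.149 (adjusted p = 0.0984). The RNA does not report NRF2 protein, which is controlled mainly by its degradation.

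HIRA KO against control gave no call among the 9 genes at either time in edgeR, whereas DESeq2 called Gpx2 before regeneration, as given above. For Gpx2 both comparisons are a description, since their control libraries entered its choice. Before regeneration 0.0391% of all genes were called in either direction, and after it 0.491%. At an unadjusted p under 0.05 in edgeR, 1 of the 9 passed before regeneration (Gpx2, above) and 2 after it (Gclc and Txnrd1). The shares of all genes just given are for adjusted calls. They are no measure for these unadjusted counts, which do not show an excess over all genes. Before regeneration, apart from Gpx2 and the sparse Slc7a11, the log2 fold changes ran from -0.13 ± 0.297 in Txnrd1 to 0.25 ± 0.124 in Gclm. After regeneration the largest was that of Srxn1, at -1.02 ± 0.553 (adjusted p = 0.393), followed closely by Gclc, at -1.02 ± 0.435 (adjusted p = 0.274). Nqo1 was at -0.87 ± 0.659 (adjusted p = 0.568) and Txnrd1 at -0.70 ± 0.298 (adjusted p = 0.267). These 4 values came with the low levels in the libraries that stood apart. Without those they were -0.32 ± 0.597 for Srxn1, -0.37 ± 0.365 for Gclc, -0.10 ± 0.692 for Nqo1 and -0.17 ± 0.236 for Txnrd1. Hmox1 was at 0.32 ± 0.207 (adjusted p = 0.488) and changed sign to -0.07 ± 0.179 without them. Gclm was at -0.01 ± 0.124 and Nfe2l2 at 0.19 ± 0.149. The standard errors of Gpx2, Nqo1 and Srxn1 were larger than those of Txnrd1, Gclc, Gclm, Hmox1 and Nfe2l2 at both times, and a p that missed the threshold does not show equal levels.

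The interaction, the test of a HIRA KO effect that depends on the time, was called for none of the 8 genes other than Gpx2 in edgeR. It was called for 0.0% of all genes in edgeR and for 67 genes with DESeq2. At an unadjusted p under 0.05, a threshold to which that share does not belong, 0 of the 8 passed in edgeR. The interaction contains the change in control for which Gpx2 was picked, so its log2 value of -4.92 ± 1.94 is a description, and it was -0.65 ± 2.50 without the libraries that stood apart. The values of Srxn1, Nqo1, Gclc and Txnrd1 were -1.03 ± 0.781, -1.12 ± 0.957, -0.99 ± 0.611 and -0.57 ± 0.420, and that of Hmox1 was 0.33 ± 0.295. From before to after regeneration in HIRA KO, 2 of the 9 genes were called, both as higher, where 12.0% of all genes were called and 6.48% as higher. The same 2, Srxn1 and Hmox1, had groups that did not overlap, against 8.61% of all genes. Without the libraries that stood apart 3 were called, which were Hmox1, Txnrd1 and Gpx2, in a fit to which these shares do not belong.

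The genes also differed in how far libraries of a group spread after regeneration. In control after regeneration the highest library exceeded the lowest 10.4-fold for Gpx2, 6.36-fold for Nqo1, 5.47-fold for Srxn1, 2.42-fold for Gclc and 2.04-fold for Txnrd1. The ratio was 1.36-fold for Gclm, 1.29-fold for Hmox1 and 1.38-fold for Nfe2l2. In log2(CPM + 1), the SD of Gpx2 over these 4 libraries was larger than that of 99.5% of 13176 genes, that of Nqo1 than 99.4% and that of Srxn1 than 99.1%. The SD of Hmox1 was larger than that of 42.4% of them. In HIRA KO after regeneration the ratio was 12.9-fold for Gpx2, 8.83-fold for Nqo1, 5.99-fold for Srxn1, 5.01-fold for Gclc and 2.85-fold for Txnrd1. There it was 1.18-fold for Gclm, 1.99-fold for Hmox1 and 1.57-fold for Nfe2l2, and the SD of Hmox1 was larger than that of 83.9% of genes. In control before regeneration Srxn1 spread only 1.23-fold and Txnrd1 1.24-fold.

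The spread had the same order of libraries in several genes. Control library 4 was the highest and library 3 the next for Gpx2, Srxn1, Nqo1, Txnrd1 and Gclc, and in HIRA KO library 3 was the highest and library 4 the next. Relative to the mean of control before regeneration, control library 4 was 16.0 times as high for Srxn1 and 15.3 times for Nqo1, and HIRA KO library 3 was 7.73 times as high for Srxn1 and 9.02 times for Nqo1. The 6 proliferation markers summed to 38.5, 123, 285 and 242 CPM in control libraries 1 to 4 after regeneration, and to 64.7, 43.1, 268 and 80.9 CPM in HIRA KO. The libraries with high Srxn1 and Nqo1 were also those with the highest proliferation sums within each genotype, although library 3, not 4, led in control. Before regeneration the sums ran from 4.08 to 10.5 CPM in control and from 6.05 to 21.5 CPM in HIRA KO. The part of cell division in the levels of the antioxidant genes was not tested.

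**Figure D3:**
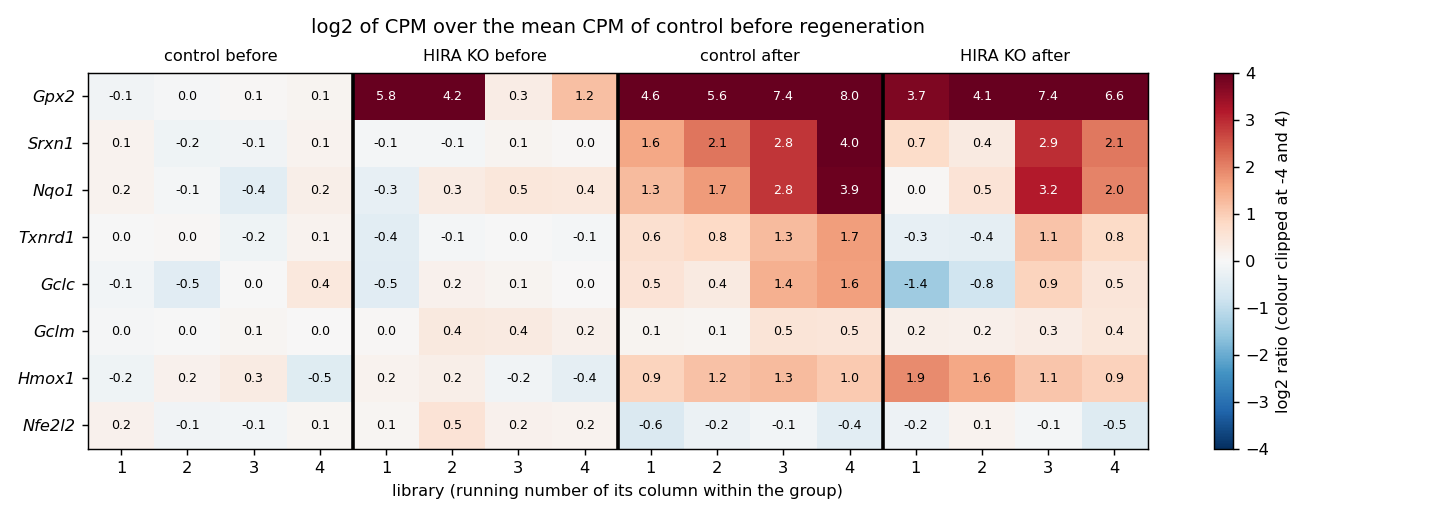
Heat map of log2 of the CPM in each library over the mean CPM of control before regeneration, with the 8 genes in rows and the 16 libraries in columns, each cell printed with its value and colours clipped at 4 in either direction. In control library 4 and HIRA KO library 3 after regeneration Srxn1, Nqo1, Txnrd1 and Gclc are all high, whereas in HIRA KO libraries 1 and 2 after regeneration they are between 0.370 and 1.68 times that mean and Hmox1 is 3.74 and 2.93 times as high.

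Likeness of pattern was described by Pearson's r of log2(CPM + 1) over the 16 libraries, among genes with a mean of at least 1 CPM. Such values share the same libraries and the same large difference between times, and they carry no p. The 5 genes most like Gpx2 were Cbr3, a carbonyl reductase (r = 0.958), and Fam83d, Dbf4, Kif11 and Neurl1b (r from 0.932 to 0.939). The 5 most like Nqo1 were Srxn1 (r = 0.974), Slc48a1, a heme transporter (r = 0.968), Gsr, glutathione reductase (r = 0.963), Txnrd1 (r = 0.959) and Spc25, a kinetochore gene (r = 0.958). Srxn1 and Txnrd1 thus stood among the 5 genes most like Nqo1. By contrast, Hmox1 ranked 2471 of 13175 (r = 0.467) and Nfe2l2 10847 (r = -0.48) in likeness to Nqo1. No member was among the 5 genes most like Gpx2, for which Srxn1 ranked 82, Nqo1 106 and Txnrd1 278. Over the 8 libraries after regeneration alone, a view chosen after the values had been seen, r with Nqo1 was 0.977 for Gpx2, 0.975 for Srxn1, 0.956 for Txnrd1, 0.930 for Gclc, 0.623 for Gclm and -0.62 for Hmox1. Tkt, a transketolase of the pentose phosphate pathway, was closest to Nqo1 in these 8 libraries (r = 0.989), followed by Ran (r = 0.986). Closest to Gpx2 in them were Cep83, Plin2, Mbd3, Spc25 and Cbr3 (r from 0.981 to 0.988), and Nqo1 ranked 7.

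Levels of different genes can be set side by side only per length, for which the deposited FPKM was used (fragments scaled by transcript length and by library size). In control before regeneration the order was Gclm at 94.3 ± 2.55 FPKM, Gclc at 79.1 ± 17.7, Txnrd1 at 42.7 ± 4.22, Nfe2l2 at 40.8 ± 5.01, Srxn1 at 14.9 ± 2.22, Hmox1 at 11.3 ± 2.70 and Nqo1 at 4.42 ± 0.929 (mean ± SD, n = 4). Slc7a11 at 0.0832 ± 0.0814 and Gpx2 at 0.0476 ± 0.00244 FPKM closed the order. Neighbours overlapped between libraries for Gclm and Gclc, for Txnrd1 and Nfe2l2, for Srxn1 and Hmox1, and for Slc7a11 and Gpx2. In control after regeneration the order was Gclc at 184 ± 86.2, Gclm at 139.9 ± 33.5, Srxn1 at 122 ± 98.96, Txnrd1 at 103 ± 40.0, Nqo1 at 36.0 ± 32.2, Nfe2l2 at 34.4 ± 5.50, Hmox1 at 26.2 ± 3.85, Gpx2 at 6.84 ± 6.30 and Slc7a11 at 0.0890 ± 0.0706 FPKM. Only Hmox1 and Gpx2, and Gpx2 and Slc7a11, were neighbours without overlap. In mean level Srxn1 thus passed from below Nfe2l2 to above it, and Nqo1 from below Hmox1 to above it, with wide overlap in the second case.

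In HIRA KO before regeneration the order began with Gclm at 122 ± 14.4 FPKM and Gclc at 83.2 ± 14.5, followed by Nfe2l2 at 51.2 ± 9.49 and Txnrd1 at 40.1 ± 3.96. Srxn1 at 15.4 ± 1.17, Hmox1 at 12.0 ± 2.81, Nqo1 at 5.59 ± 1.20, Gpx2 at 1.07 ± 1.41 and Slc7a11 at 0.0411 ± 0.0281 FPKM followed. In HIRA KO after regeneration Gclm stood first at 142 ± 11.2 FPKM, and each neighbour down to Gpx2 at 4.10 ± 4.09 overlapped the next. For Slc7a11 both tables had few reads and did not rank libraries alike, as the HIRA KO library with 10 counts was listed at 0.0653 FPKM and a control library with 1 count at 0.157 FPKM. The FPKM of HIRA KO library 1 summed to 2105480 before and 1831930 after regeneration, against 693985 to 949403 in the other 14 libraries, so FPKM was used for the order of genes and not for the main tests.

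**Figure D4:**
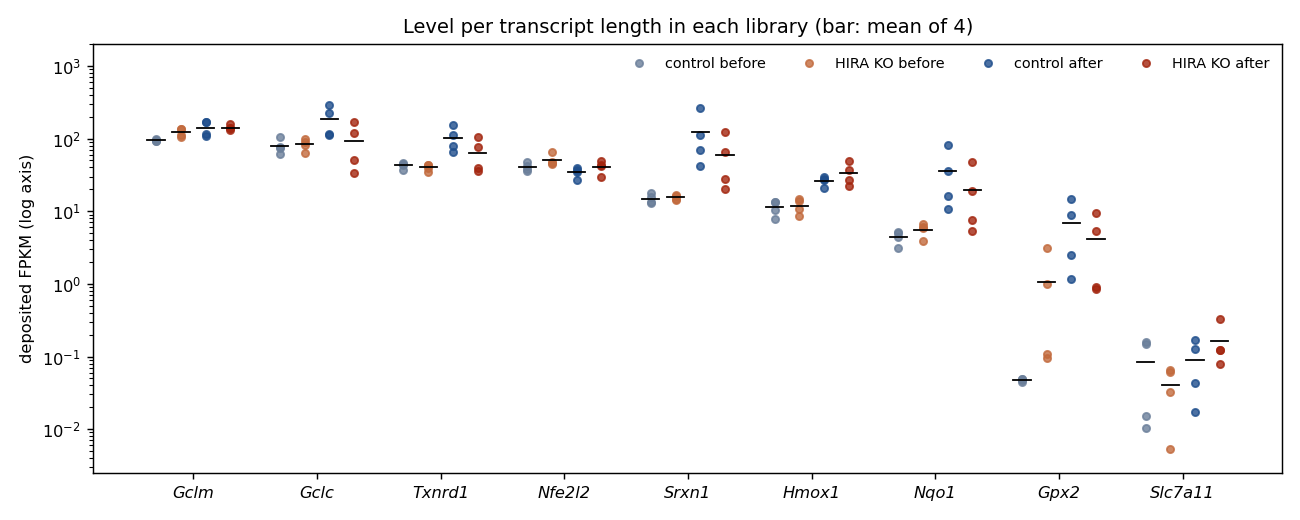
Deposited FPKM on a log axis for the 9 genes, with 1 point per library, 4 groups of 4 side by side and a bar at each mean. Gclm and Gclc lead in control before regeneration at 94.3 and 79.1 FPKM, and Srxn1, Nqo1 and Gpx2 show the widest spread after regeneration.

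The wider pathway was read from 9 lists with 67 further genes, of which 66 were tested. These lists too were chosen with earlier results of these data known, so the shares beside them are a description. From before to after regeneration in control, 14 rose and 6 fell, where 6.04% of all genes rose and 4.17% fell. In HIRA KO 8 rose and 5 fell, where 6.48% of all genes rose and 5.53% fell. With the libraries that stood apart left out, 13 rose and 4 fell in HIRA KO. The shares of all genes given here belong to the fit of all libraries and not to this one. In HIRA KO against control 0 were called before regeneration in edgeR, 2 were called as higher after it, and 0 were called in the interaction. The median log2 fold change over the 66 was 0.20 in control and 0.09 in HIRA KO from before to after regeneration, against 0.00 and 0.02 over all genes.

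Among glutathione enzymes, 3 of 12 rose in control. Gstm3, a glutathione S-transferase, went from 129 ± 60.5 to 2450 ± 1565 CPM (adjusted p = 0.00579), and Gsta1, another transferase, from 1.16 ± 0.684 to 34.9 ± 36.4 CPM (adjusted p = 0.00416). Gsr, which regenerates reduced glutathione, rose 2.15-fold (edgeR adjusted p = 0.00930). The glutathione transferases are families of close copies, between which reads may be split. In HIRA KO Gstm3 rose 13.5-fold (adjusted p = 0.00992), and Ggt1, which breaks down glutathione outside the cell, rose from 0.168 ± 0.0439 to 1.59 ± 1.22 CPM (adjusted p = 0.00256). Without the libraries that stood apart Ggt1 was not called (adjusted p = 0.0520), and Gss, glutathione synthetase, and Gstm1, a transferase, were called as 2.14-fold and 4.42-fold higher (edgeR adjusted p = 0.00520 and 0.00143). Of the 5 other glutathione peroxidases 2 rose in control, Gpx7 by 6.68-fold (adjusted p = 0.00138) and Gpx3 by 2.54-fold (adjusted p = 0.00306). In HIRA KO 3 rose, Gpx7 by 3.22-fold, Gpx3 by 1.90-fold and Gpx4 by 1.43-fold (edgeR adjusted p = 0.0170, 0.0219 and 0.0461), and Gpx4 was not called without the libraries that stood apart (adjusted p = 0.0878).

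Of 8 tested genes for quinone and carbonyl detoxification 4 rose and 1 fell in control. Osgin1, an oxidative stress response gene, went from 149 ± 63.9 to 1187 ± 345 CPM (adjusted p = 0.000102), the smallest adjusted p of the 66 genes in this comparison. Cbr3 went from 0.632 ± 0.227 to 40.0 ± 51.6 CPM (adjusted p = 0.0227), with an SD above its mean. Cbr1 rose 3.84-fold and Akr1b10 1.99-fold (edgeR adjusted p = 0.0156 and 0.0316), and Nqo2, a relative of Nqo1, fell 1.32-fold (adjusted p = 0.0252). In HIRA KO Osgin1 alone of these was called, at 3.95-fold higher (adjusted p = 0.000871). Cbr3 there had a log2 fold change of 3.58 ± 1.28 (adjusted p = 0.0906), and Akr1b10 one of 0.81 ± 0.273 (adjusted p = 0.0626).

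In the thioredoxin and peroxiredoxin list the changes went both ways. Of 10 genes 1 rose and 3 fell in control. Prdx1 rose 1.49-fold (edgeR adjusted p = 0.0201), whereas Txnip, which inhibits thioredoxin, fell 2.56-fold (adjusted p = 0.0158), Txnrd3 fell 1.59-fold (adjusted p = 0.0271) and Txnrd2, the mitochondrial reductase, fell 1.40-fold (adjusted p = 0.0283). In HIRA KO Txnip and Txnrd2 fell 2.25-fold and 1.38-fold (edgeR adjusted p = 0.0304 and 0.0322). Without the libraries that stood apart, Prdx1 rose 1.54-fold, Prdx5 1.47-fold and Txn1, thioredoxin, 1.67-fold in HIRA KO (edgeR adjusted p = 0.0226, 0.0152 and 0.0171). Txnrd3 was then called as 1.66-fold lower (adjusted p = 0.0268), and Txnrd2 was not called (adjusted p = 0.0621). Txnrd1, described above, thus rose in control where its paralogs Txnrd2 and Txnrd3 fell.

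Of 9 NRF2 regulators only 1 was called in control, Keap1, the NRF2 inhibitor, which rose 1.31-fold (edgeR adjusted p = 0.0221). Mafk, a small MAF partner, was next with a log2 fold change of 0.36 ± 0.137 (adjusted p = 0.112). No regulator was called in HIRA KO, where Keap1 was at 0.28 ± 0.103 (adjusted p = 0.0899) and Nfe2l1 at -0.48 ± 0.205 (adjusted p = 0.138). With the libraries that stood apart left out 1 was called there, Sqstm1, an autophagy receptor that binds KEAP1, at 1.43-fold higher (edgeR adjusted p = 0.0366). Of 6 genes for NADPH supply, Pgd of the pentose phosphate pathway rose in both genotypes, by 2.43-fold in control and 1.85-fold in HIRA KO (edgeR adjusted p = 0.00153 and 0.0131). The next were G6pdx in control, at 0.76 ± 0.317 (adjusted p = 0.156), and Me1 in HIRA KO, at -1.34 ± 0.507 (adjusted p = 0.104).

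Among 6 genes of heme and iron handling, the ferritin light chain Ftl1 rose 1.57-fold in control (edgeR adjusted p = 0.0297), with Blvra next at 0.30 ± 0.130 (adjusted p = 0.174). In HIRA KO Blvra, a biliverdin reductase acting after HMOX1, rose 1.68-fold (adjusted p = 0.00169) and Fech, the last enzyme of heme synthesis, fell 1.35-fold (adjusted p = 0.0471). Of 4 genes that remove superoxide and hydrogen peroxide, Sod3 rose 1.52-fold and Sod2 fell 1.40-fold in control (edgeR adjusted p = 0.0346 and 0.0130). None was called in HIRA KO, where Sod3 was at 0.53 ± 0.173 (adjusted p = 0.0548) and Cat at -0.57 ± 0.269 (adjusted p = 0.184). Sod3 was called there without the libraries that stood apart, at 1.83-fold higher (adjusted p = 0.0168). Gpx2 and Txnrd1 encode selenoproteins, and of 6 genes for selenoprotein synthesis Sephs2 fell in both genotypes, by 1.82-fold in control and 1.49-fold in HIRA KO (edgeR adjusted p = 0.00300 and 0.0281). Sepsecs was next in control at -0.28 ± 0.111 (adjusted p = 0.121), and Secisbp2 fell 1.45-fold in HIRA KO (adjusted p = 0.0289), a call lost without the libraries that stood apart (adjusted p = 0.0514).

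The 2 genes of these lists called in HIRA KO against control after regeneration were Ggt1, at 1.59 ± 1.22 against 0.179 ± 0.0849 CPM (edgeR adjusted p = 0.0383), and Prdx5, at 240.0 ± 33.9 against 159.6 ± 7.37 CPM (adjusted p = 0.0434). Without the libraries that stood apart Prdx5 was called as 1.67-fold higher (edgeR adjusted p = 0.0194) and Ggt1 was not called (adjusted p = 0.200).

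**Figure D5:**
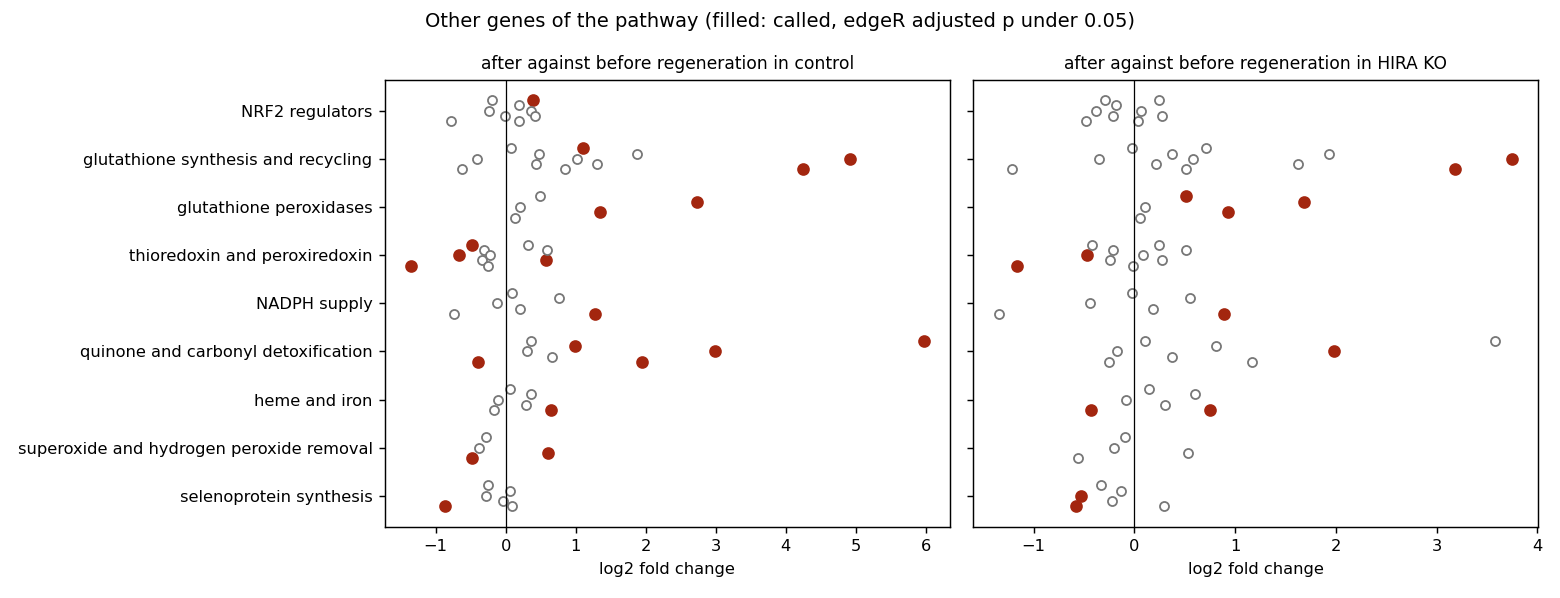
Log2 fold change of 66 further genes in 9 lists, from before to after regeneration, in control (left) and HIRA KO (right), with a separate horizontal scale in each panel. Each point is a gene, filled where it was called at an edgeR adjusted p under 0.05 and open otherwise. In control 14 rose and 6 fell, with Cbr3, Gsta1 and Gstm3 farthest to the right.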

How the data were processed

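Bulk RNA-seq of 16 liver libraries was analysed. According to its methods section, the authors trimmed reads where needed with Trim Galore, aligned them to mm10 with STAR and counted genes with HOMER. The submitters' processing notes name STAR, HTSeq and Cufflinks without roles. The deposited tables hold raw counts and FPKM, one column per library. The tool behind the FPKM, the annotation release and the use of strand in counting are not given in the sources used here. Columns name genotype, time and a running number, so each was a replicate of its group only. Coordinates are those of GENCODE M21.

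Genes with at least 10 counts in total were tested with edgeR (version 4.0.16, R version 4.3.3) by its robust quasi-likelihood test, with TMM scaling, 4 group means over all 16 libraries and Benjamini-Hochberg adjustment over 23018 genes. The SE is the absolute log2 fold change over the square root of F. Counts of 15103059 to 21738619 per library set the precision. DESeq2 (version 1.42.0), limma (version 3.58.1) on counts or log2(FPKM + 1) and log2(FPKM + 0.1), other filters and left-out libraries were alternatives. The test was checked on simulated data with the same spread for all genes and changes only in genes with many counts, in control across time. That check held no libraries that stood apart, so it does not cover sparse genes or the uneven spread described above. The members and lists were chosen with earlier results of these data known. All members were named, and of the wider lists the called genes and the 2 genes with the smallest p per list in the 2 comparisons across time. Exact binomial intervals at 95% on summed counts cover counting error only. Differences between libraries of unknown pairing may include effects of the mouse or the deletion approach.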

Additional observations from a re-analysis of the deposited data

Results flagged for a closer look

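In 36 checks of the 9 genes in 4 groups, 2 groups of 4 libraries had a library far from the other 3 by Dixon's criterion. Chance alone gives about 1 in 20, so 2 of 36 is near the number that chance would give. That rate holds for normal values, which the few counts of Slc7a11 are not. In HIRA KO before regeneration the lowest library for Txnrd1, number 1, held 126 CPM against 159.7 to 166 CPM in the others. In the same group the highest library for Slc7a11, again number 1, held 0.529 CPM (10 counts) against 0 to 1 count in the others. This library was 1 of the 4 that stood apart from the rest, and it also held the most Gpx2 before regeneration. What set it apart was not tested.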

How the results depend on the processing

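No paired analysis was possible because the columns carry neither the replicate numbers of the labels nor the mouse, so after and before could not be tied within a mouse. The alternatives were limited by this and by 4 libraries per group, and Slc7a11, with too few counts for a fold, was followed only by its call. Srxn1 in control and Hmox1 in both genotypes remained called in every alternative and every fit without 1 library.

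Among the 9 genes, DESeq2 called 1 (Gpx2) in HIRA KO against control before regeneration, where the control libraries had entered its choice. In control across time, the number called among the 8 tested members was 4. It was 3 with no filter, which lost Txnrd1, and with limma-voom, which lost Nqo1. It was 5 with DESeq2 and only the groups compared, which added Gclc, and on both FPKM scales, which added Gclm, and between 2 and 4 without 1 library. In HIRA KO across time it was 2, with 1 under no filter, limma-voom, only the groups compared and both FPKM scales, and 1 or 2 without 1 library. Over all genes, HIRA KO against control before regeneration called 9 genes, 375 with DESeq2, 36 with no filter, 1 with limma-voom, 5 and 25 on log2(FPKM + 1) and log2(FPKM + 0.1), 5 without the libraries that stood apart and 1 to 33 without 1 library. After regeneration it called 113, 910 with DESeq2, 228 with filterByExpr, 0 with only the groups compared, 61 and 68 on the FPKM scales, 15 without the libraries that stood apart and 5 to 452 without 1 library. Control across time called 2350, and 1530 to 2357 without 1 library, the lowest being without control library 4 after regeneration. HIRA KO across time called 2764, 1431 with only the groups compared, and 1678 to 2771 without 1 library. The interaction called 0, 67 with DESeq2, 1 with no filter, 1 on log2(FPKM + 0.1) and 0 to 7 without 1 library. The causes were not tested.

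Signs changed only for log2 fold changes that were not called, from -0.754 (Gpx2) to 0.318 (Hmox1), both in HIRA KO against control after regeneration. Gclc in HIRA KO against control before regeneration turned to 0.08 and 0.0809 on the FPKM scales and 0.0669 without the libraries that stood apart. Hmox1 there turned to 0.00683 with DESeq2, 0.00688 with DESeq2 size factors, 0.00391 with filterByExpr, 0.0022 with limma-voom, and 0.0805 and 0.0872 on the FPKM scales. After regeneration Gclm turned to 0.0116, 0.0119, 0.00772, 0.0131, 0.00542, 0.00731, 0.0453, 0.0458 and 0.0799 under DESeq2, DESeq2 size factors, no filter, filterByExpr, limma-voom, only the groups compared, both FPKM scales and without the libraries that stood apart, under which Gpx2 turned to 0.115 and Hmox1 to -0.0745. In HIRA KO across time Gclc turned to -0.167 with limma-voom and to -0.0967 and -0.101 on the FPKM scales. Without 1 library, ranges were -0.149 to 0.148 (Gclc), -0.0504 to 0.0507 (Srxn1) and -0.146 to 0.111 (Hmox1) before regeneration, -0.075 to 0.103 (Gclm) after it, and -0.331 to 0.392 (Gclc) and -0.0112 to 0.101 (Gclm) in HIRA KO across time, and -0.143 to 0.0744 for Nfe2l2 in the interaction.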
